A study of Mus musculus with 6 samples.

Results

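Collagens and other extracellular matrix genes were followed array by array in sorted blood stem cells, 51 genes of the 18193 genes that have a probe set of a single gene symbol. They were chosen by name: 42 genes whose symbol starts with Col, a type number and a chain number, and 9 of 12 listed matrix genes (Sparc, Fn1, Dcn, Lum, Bgn, Postn, Alpl, Lox and Tnc). The other 3 listed genes, Fbn1, Bglap and Spp1, had no single-symbol probe set and are not analysed here. For each gene the values are those of its probe set with the greatest average across the 6 arrays, and no member was removed for low signal. No measured value entered the choice of genes, although it was made with earlier results of these data known.

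The cells were long-term haematopoietic stem cells (LT-HSCs), sorted from bone marrow as Lin-Sca1+CD150+CD48- cells of mice aged 8 weeks on a mixed background. The double knockout (dKO) group carried MxCre and floxed alleles (f2) of the c-myc gene Myc and of the N-myc gene Mycn, and the control group carried both floxed genes without MxCre. The genotype label of control replicate 2 reads M-Myc in place of N-myc, and that array was kept among the controls by its title. Mice of both groups were given pI-pC, a synthetic double-stranded RNA that induces interferon, in 2 daily treatments, and cells were taken 3 days after the last one. Each group had 3 arrays, and an array read the pooled cells of several mice (3 animals in dKO, 2 in control). Pool size differed between the groups throughout, so its effect cannot be told apart from that of genotype. MxCre is driven by the interferon-responsive Mx1 promoter, which is active in many cell types, so deletion is not confined to the sorted cells. In RNA of a sorted pool, fewer cells of a type and less RNA per cell cannot be told apart.

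The extracellular matrix is the protein and polysaccharide mesh outside cells. Collagen chains wind into triple helices: fibrillar collagens such as types I and III build bone and connective tissue, type IV collagen forms the sheet of basement membranes, and types XV and XVIII attach to those sheets and carry endostatin at their end. Sparc (osteonectin) binds collagen and is made by bone-forming cells, and also by megakaryocytes, the platelet-forming cells. In marrow most matrix is made by osteoblasts, reticular stromal cells and vessel walls.

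The start regions of the genes on which the results turn are shown with their RefSeq sequence on GRCm38.p6, from 250 bases before to 50 bases after an annotated start, 5′ to 3′ on the gene's own strand. Of the 51 genes, 38 had such a region in the table used, 44 regions in all. The genes for the type IV chains alpha 1 and alpha 2 lie head to head, and the annotated starts used here are 21 bases apart on opposite strands of chromosome 8. Capitals in the Col4a2 region (chr8:11312555-11312854, plus strand) mark the 78 bases that it shares with the Col4a1 region.
Col4a2: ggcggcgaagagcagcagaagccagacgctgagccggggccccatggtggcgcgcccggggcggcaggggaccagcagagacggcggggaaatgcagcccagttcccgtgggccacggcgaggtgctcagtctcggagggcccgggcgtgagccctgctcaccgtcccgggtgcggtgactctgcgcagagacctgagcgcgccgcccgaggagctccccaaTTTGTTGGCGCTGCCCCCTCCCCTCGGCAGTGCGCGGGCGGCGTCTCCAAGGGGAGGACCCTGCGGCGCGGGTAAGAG

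The Sparc region (chr11:55420031-55420330, minus strand) is shown because Sparc had the largest difference of the 51 genes. Capitals mark its longest CT repeat, 18 bases, a feature chosen after the sequence was seen. On the strand of the gene, 0.0548% of the 32851 regions in the table hold a CT repeat at least as long.
Sparc: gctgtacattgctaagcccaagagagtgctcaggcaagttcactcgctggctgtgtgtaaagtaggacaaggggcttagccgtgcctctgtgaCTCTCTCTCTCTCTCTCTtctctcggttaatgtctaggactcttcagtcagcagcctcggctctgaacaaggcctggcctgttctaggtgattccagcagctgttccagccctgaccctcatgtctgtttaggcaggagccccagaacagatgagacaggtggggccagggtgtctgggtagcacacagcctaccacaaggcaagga

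Col18a1 has a pair of annotated starts on chromosome 10, an upstream one (chr10:77166481-77166780, minus strand) and a downstream one (chr10:77113656-77113955, minus strand). Col1a2 (chr6:4505368-4505667, plus strand) stands for the type I chains, since Col1a1 had no region in the table. Capitals mark GGGCGG (the GC box) and CCAAT, on either strand. The upstream Col18a1 region held 3 GC boxes and 1 CCAAT, the downstream region neither, and the Col1a2 region 2 of each.
Col18a1 upstream: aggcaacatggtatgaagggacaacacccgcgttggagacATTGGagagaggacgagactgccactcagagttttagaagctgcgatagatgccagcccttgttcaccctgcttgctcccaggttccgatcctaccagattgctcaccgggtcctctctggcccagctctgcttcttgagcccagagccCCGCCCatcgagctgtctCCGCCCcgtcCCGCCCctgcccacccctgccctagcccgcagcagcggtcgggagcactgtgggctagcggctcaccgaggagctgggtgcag
Col18a1 downstream: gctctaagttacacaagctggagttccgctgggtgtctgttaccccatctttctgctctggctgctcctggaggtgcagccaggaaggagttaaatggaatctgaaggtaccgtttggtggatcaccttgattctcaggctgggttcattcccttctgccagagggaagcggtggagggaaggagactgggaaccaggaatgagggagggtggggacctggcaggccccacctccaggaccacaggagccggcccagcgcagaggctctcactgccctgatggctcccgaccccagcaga
Col1a2: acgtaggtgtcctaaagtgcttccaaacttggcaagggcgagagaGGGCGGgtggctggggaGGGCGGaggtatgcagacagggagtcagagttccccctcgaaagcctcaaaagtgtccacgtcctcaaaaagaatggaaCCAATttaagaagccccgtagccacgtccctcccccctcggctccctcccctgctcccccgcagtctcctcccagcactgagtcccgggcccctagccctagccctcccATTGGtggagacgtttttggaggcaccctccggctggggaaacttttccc

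CACGTG, the E-box letters that Myc-Max dimers are known to bind, was found in 0 of the 44 regions of these genes and in 7.15% of all regions, read on both strands. The GC box was in 26 of the 44 regions (59.1%) and in 35.7% of all. CCAAT was in 14 of the 44 (31.8%) and in 37.4% of all. TATAAA, the TATA box letters, was in 9 of the 44 (20.5%) and in 13.6% of all. A match is a description of the letters in these windows only.

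Array medians lay between 5.90 and 5.97, and arrays of the same group correlated at 0.974 to 0.981, against 0.956 to 0.969 for arrays of different groups (Pearson, over probe sets). Values are log2 RMA values throughout, so a difference of 1 is 2-fold. Myc had 7.28, 7.77 and 7.24 in dKO arrays, against 10.40, 10.57 and 10.12 in control arrays, and Mycn by its probe set with the highest mean had 7.71, 7.08 and 7.20 against 9.23, 8.70 and 8.89, so both deleted genes were lower in every dKO array. Another Mycn probe set had 3.40, 3.81 and 3.17 in dKO arrays and 10.80, 10.87 and 10.76 in control arrays. The difference between the Gapdh 3' and 5' control probe sets, which grows as RNA is shorter, was 2.39 to 2.47 in dKO arrays and 2.12 to 2.36 in control arrays. The number of arrays limits the precision, and a pool is the unit of replication.

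Most matrix genes gave little signal in these cells. The mean over 6 arrays was above the highest array median for 11 of 51 genes and below the lowest for 40. For 8 genes it lay in the range of the TrpnX control probe sets, 2.13 to 3.92, taken here as negative controls. The range over the 6 arrays was under 1 for 31 genes. Probe sets differ in how they bind RNA, so these levels do not rank the genes against each other.

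Of the 51 genes, 4 rose in dKO cells: Sparc, Col18a1, Col4a2 and Col6a1. That is 7.84% of the members, where 4.49% of all 18193 genes were called higher (limma, Benjamini-Hochberg adjusted p under 0.05 over all 45037 probe sets, of which 6.99% were called in either direction). No member was called lower by limma (0 of 51, with 3.56% of all genes called lower), although at an unadjusted p under 0.05 10 members were higher, where 12.3% of all genes were, and 3 were lower, where 10.8% of all genes were. The median difference, dKO minus control, was 0.11 over the members and 0.01 over all genes. Leaving out dKO replicate 2, control replicate 1 or control replicate 3 left 2 members called, Sparc and Col18a1.

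Every dKO array was above every control array for 14 members (27.5%), where 15.8% of all genes showed this. For 4 members (7.84%) every dKO array was below every control array, against 14.2% of all genes. The 4 were Bgn, Col6a3, Col17a1 and Col6a4. A different pattern, 1 array at least 1 above the next highest of all 6, was shown by 6 members (11.8%) and by 1.45% of all genes. The array that stood out was dKO replicate 3 for Col1a1, Col1a2 and Col11a1, dKO replicate 1 for Col3a1 and Dcn, and control replicate 2 for Col6a3.

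**Figure D1:**
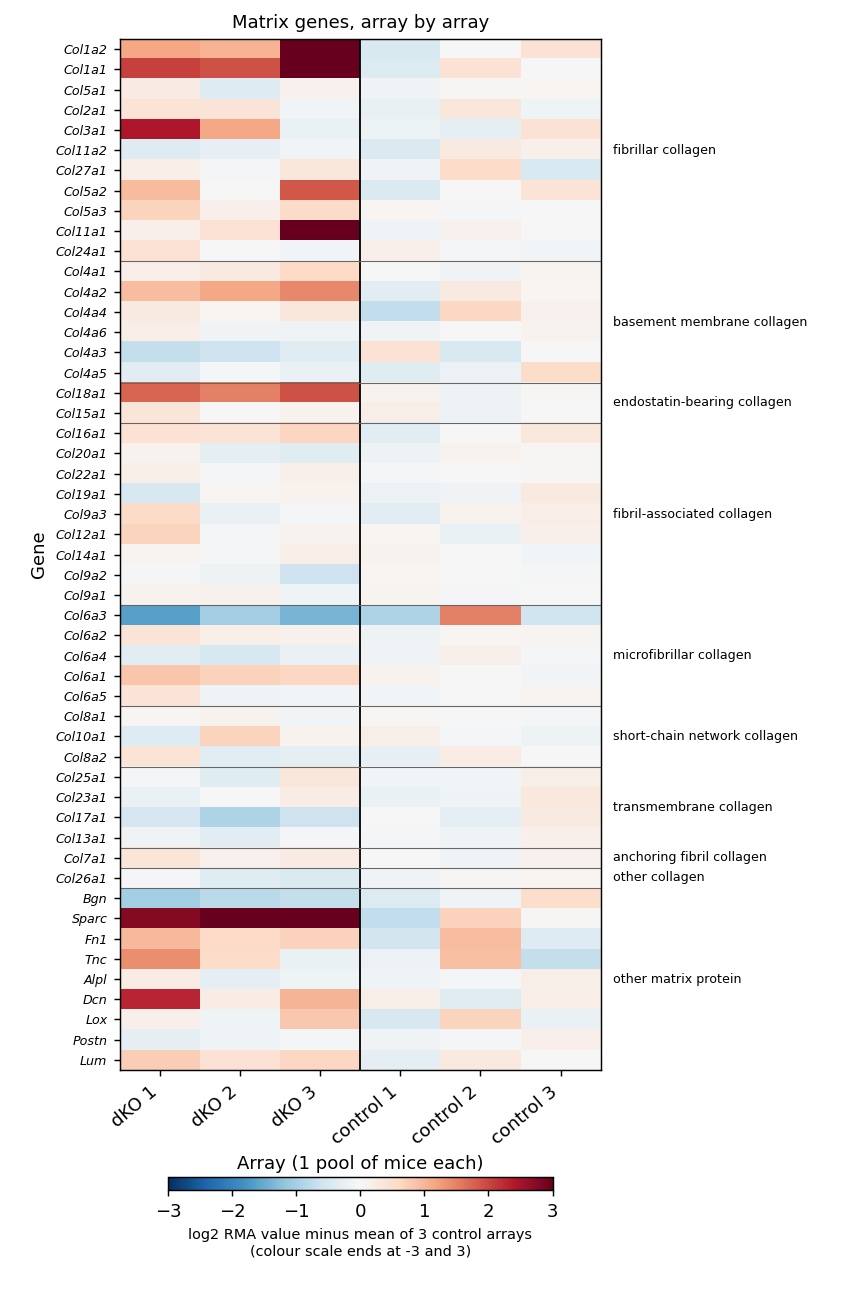
Each row is 1 of the 51 genes and each column 1 array, and colour gives the log2 RMA value minus the mean of the 3 control arrays. Sparc, Col18a1 and Col4a2 are red in all 3 dKO columns, whereas Col11a1 is dark red in dKO replicate 3, Col3a1 and Dcn are darkest in dKO replicate 1, and Col6a3 is red in control replicate 2.

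Sparc, the collagen-binding matrix protein, showed the largest difference of the members. By probe set 1448392_at it had 9.03, 9.31 and 9.79 in dKO arrays, against 5.53, 6.96 and 6.31 in control arrays. All 3 dKO arrays were high and all 3 control arrays low, with no overlap and no dKO pool standing out. The increase was 8.63-fold (log2 difference 3.11 ± 0.37 SE, limma adjusted p = 0.006, higher in 3 of 3 arrays). The second Sparc probe set, 1416589_at, had 8.57, 8.99 and 9.14 in dKO arrays and 6.93, 5.58 and 6.38 in control arrays, a difference of 2.60 ± 0.34 (SE, limma adjusted p = 0.00816). A dimmer probe set, 1458204_at, had means of 4.82 and 4.76 in dKO and control arrays and did not pass the test (limma adjusted p = 0.919). For each of the 18 members whose groups did not overlap, an exact permutation test gave a two-sided p of 0.1, the smallest that 3 arrays against 3 can give.

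Sparc kept its call with any 1 array left out, with differences of 2.74 to 3.46. Some megakaryocyte and platelet markers also differed: of 11 measured, 4 rose (Ppbp, Pf4, Itgb3 and Itga2b), 1 fell (Vwf) and 6 did not pass. That is 36.4% higher, where 4.49% of all genes were, and the list median was 0.20. The linear values of this list summed to 14117, 9180 and 10912 in dKO arrays and 4595, 4984 and 4316 in control arrays. Such sums are weighted towards the brightest genes. The highest array was dKO replicate 1 for 7 of the 11 markers (63.6%, where it was for 18.6% of all genes). Control replicate 1 was highest for 3 and control replicate 2 for 1. Sparc had its lowest dKO value, 9.03, in dKO replicate 1. Only Gp6, a collagen receptor of platelets, was at negative control level in both groups, and the part of these cells in the Sparc difference was not tested.

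Col18a1, the type XVIII collagen chain whose end is cut off as endostatin, separated the groups with little spread within either. Its dKO arrays had 8.47, 8.22 and 8.63, against 6.82, 6.57 and 6.75 in control arrays. Both groups were tight, and the difference was 1.73 ± 0.16 (SE), or 3.31-fold (limma adjusted p = 0.00285). The second probe set, 1418237_s_at, had 8.56, 7.98 and 8.17 in dKO arrays and 6.35, 6.66 and 7.01 in control arrays, a difference of 1.57 ± 0.22 (SE, limma adjusted p = 0.0108). Its call was kept with any 1 array left out. Col15a1, the other chain that carries endostatin, had dKO values of 5.47, 5.11 and 5.21 and control values of 5.30, 4.93 and 5.10, which overlap (limma adjusted p = 0.669).

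The type IV genes that share the start region shown above both had every dKO array above every control array. Col4a2 had 7.66, 7.90 and 8.16 in dKO arrays, against 6.41, 7.0 and 6.77 in control arrays, a 2.26-fold rise (log2 difference 1.18 ± 0.20 SE, limma adjusted p = 0.0194). Col4a1, the alpha 1 chain, had 9.24, 9.31 and 9.63 against 9.05, 8.94 and 9.12, a difference of 0.36 ± 0.15 that did not pass (SE, limma adjusted p = 0.231). Its second probe set, 1426348_at, had 6.21, 6.83 and 6.69 in dKO arrays and 5.63, 5.59 and 5.65 in control arrays, and rose by 0.95 ± 0.18 (SE, limma adjusted p = 0.027). The size of the Col4a1 difference therefore depended on the probe set, while the direction did not. The Col4a2 call was lost without dKO replicate 2 or 3 or control replicate 1 or 3, with an adjusted p of up to 0.0643. The other type IV chains, Col4a3 to Col4a6, did not pass, with differences of -0.56 to 0.23, of which the lowest, of Col4a3, is limited by a dKO mean in the negative control range. The Col4a5 probe set was in that range in both groups.

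Col6a1, a chain of the beaded microfibrils of type VI collagen, was called at the edge of detection. It had 4.21, 4.06 and 3.99 in dKO arrays and 3.47, 3.36 and 3.29 in control arrays. Because the control mean of 3.38 lay in the negative control range, the rise is at least 1.13-fold against the top of that range (measured log2 difference 0.71 ± 0.13 SE, limma adjusted p = 0.0248). The call did not survive the removal of any 1 array. Col6a2, another chain of the same trimer, had 5.66, 5.45 and 5.41 in dKO arrays and 5.12, 5.35 and 5.37 in control arrays (limma adjusted p = 0.439).

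**Figure D2:**
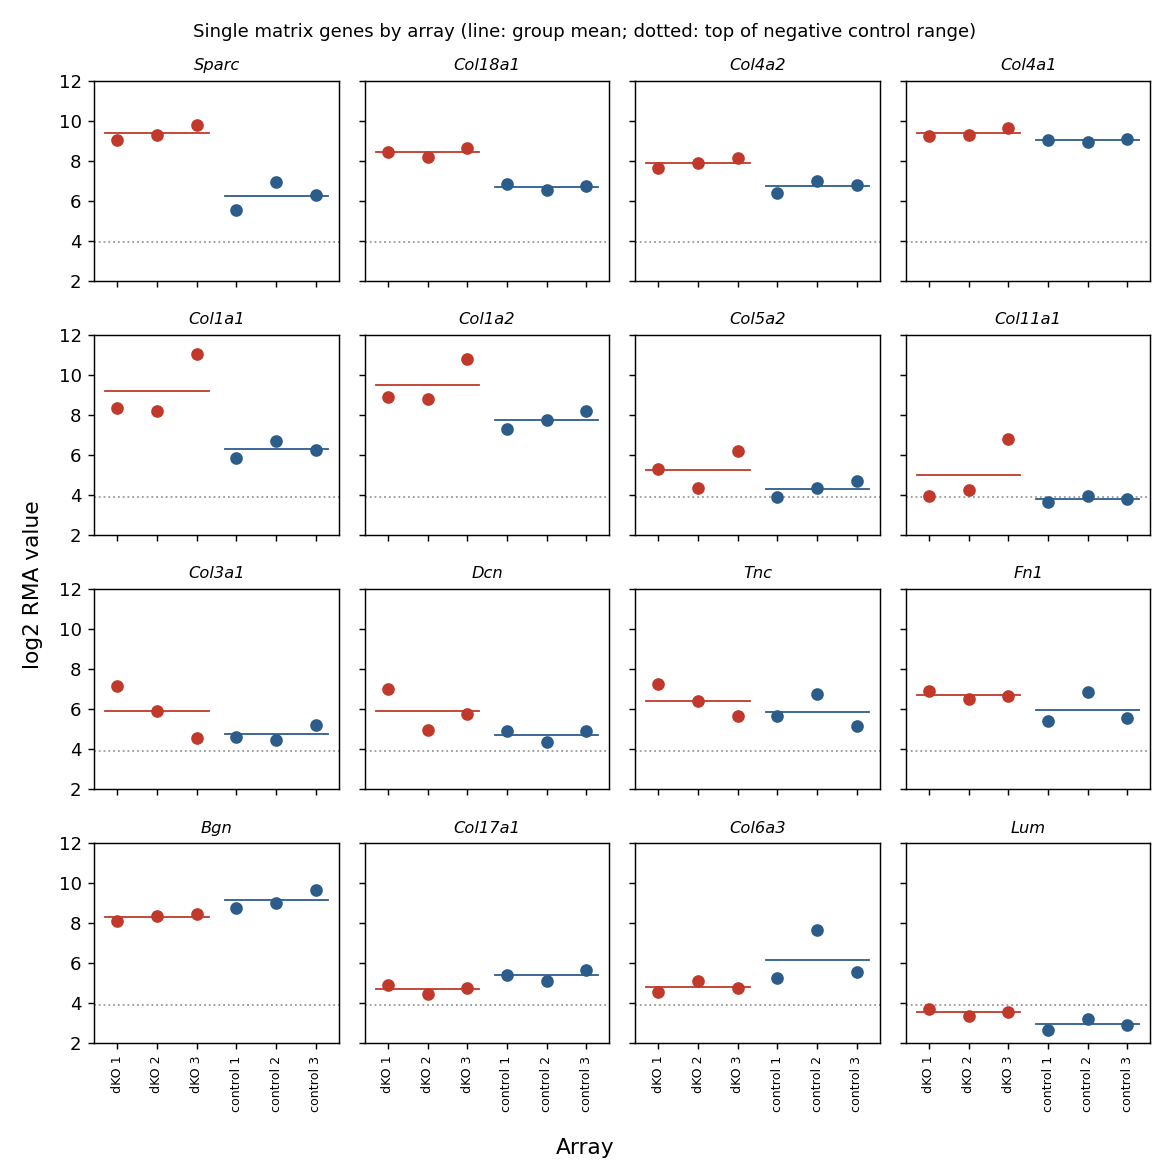
Log2 RMA values of 16 matrix genes, 1 point per array, with dKO in red, control in blue, a line at each group mean and a dotted line at 3.92, the top of the negative control range. Sparc, Col18a1 and Col4a2 separate the groups in all arrays, and Col1a1 and Col1a2 also separate them but with dKO replicate 3 far above the other 2 dKO arrays.

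Type I collagen combined both patterns. Col1a1, its alpha 1 chain, had 8.33, 8.20 and 11.03 in dKO arrays, against 5.86, 6.71 and 6.26 in control arrays. All dKO arrays were above all control arrays, and dKO replicate 3 stood a further 2.70 above dKO replicate 1. The gene did not pass, with a difference of 2.91 ± 0.72 (SE, limma adjusted p = 0.0603). Without dKO replicate 3 the difference was 1.98 and limma's adjusted p was 0.0239, so a rise in Col1a1 was called in the absence of the array that stood out. It was also called with a trended robust prior (adjusted p = 0.0381), with dim probe sets removed (0.0299) and with the mean over probe sets (0.0484). It was not called by limma with median centring (adjusted p = 0.0571), quantile normalization (0.0616), array weights (0.0637) or the replicate block (0.0746). Removal of any single array other than dKO replicate 3 did not give a call either. The other Col1a1 probe set, 1423669_at, had 7.24, 7.0 and 9.52 in dKO arrays and 6.05, 5.99 and 5.61 in control arrays, and thus gave the same order of groups and the same outstanding array.

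Col1a2, the alpha 2 chain of type I collagen, had 8.90, 8.79 and 10.79 in dKO arrays and 7.30, 7.76 and 8.19 in control arrays. Its groups did not overlap, the highest array was 1.88 above the next, and its difference of 1.74 ± 0.53 did not pass (SE, limma adjusted p = 0.108). A second probe set, 1423110_at, had 6.32, 6.43 and 9.0 in dKO arrays and 5.16, 3.81 and 6.11 in control arrays. The third, 1446326_at, near background with 4.06, 3.98 and 4.17 against 3.44, 3.67 and 3.53, did not share the peak in dKO replicate 3.

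Col11a1, a fibrillar chain best known from cartilage, was well above the negative control range in 1 pool, by 1 of its 2 probe sets. It had 3.96, 4.23 and 6.79 in dKO arrays and 3.67, 3.94 and 3.79 in control arrays (limma adjusted p = 0.38). Against the top of the negative control range, in which the control mean lay, the dKO mean was at least 2.11-fold higher, and that mean was set by dKO replicate 3. The other Col11a1 probe set, 1449154_at, had 2.74, 2.82 and 3.49 in dKO arrays and 2.96, 2.67 and 2.81 in control arrays. All of these values lay in the negative control range (limma adjusted p = 0.684). Among genes whose highest array was dKO replicate 3, Col1a1 had the rank 3 by its gap to the next array, Col11a1 the rank 5 and Col1a2 the rank 11, of 42 genes with a gap of at least 1. Col5a2, a chain that joins type I fibrils, named after its values were seen, had 5.27, 4.33 and 6.18 in dKO arrays and 3.89, 4.33 and 4.72 in control arrays. Its dimmer probe set, 1450625_at, had 2.40, 2.71 and 4.49 in dKO arrays and 2.65, 2.46 and 2.63 in control arrays, again highest in dKO replicate 3. Of the 11 fibrillar collagen genes, limma called 0 higher and 0 lower, 3 were higher at an unadjusted p under 0.05 (12.3% of all genes), and the highest array was dKO replicate 1 for 5 genes, dKO replicate 3 for 4 and control replicate 2 for the other 2.

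**Figure D3:**
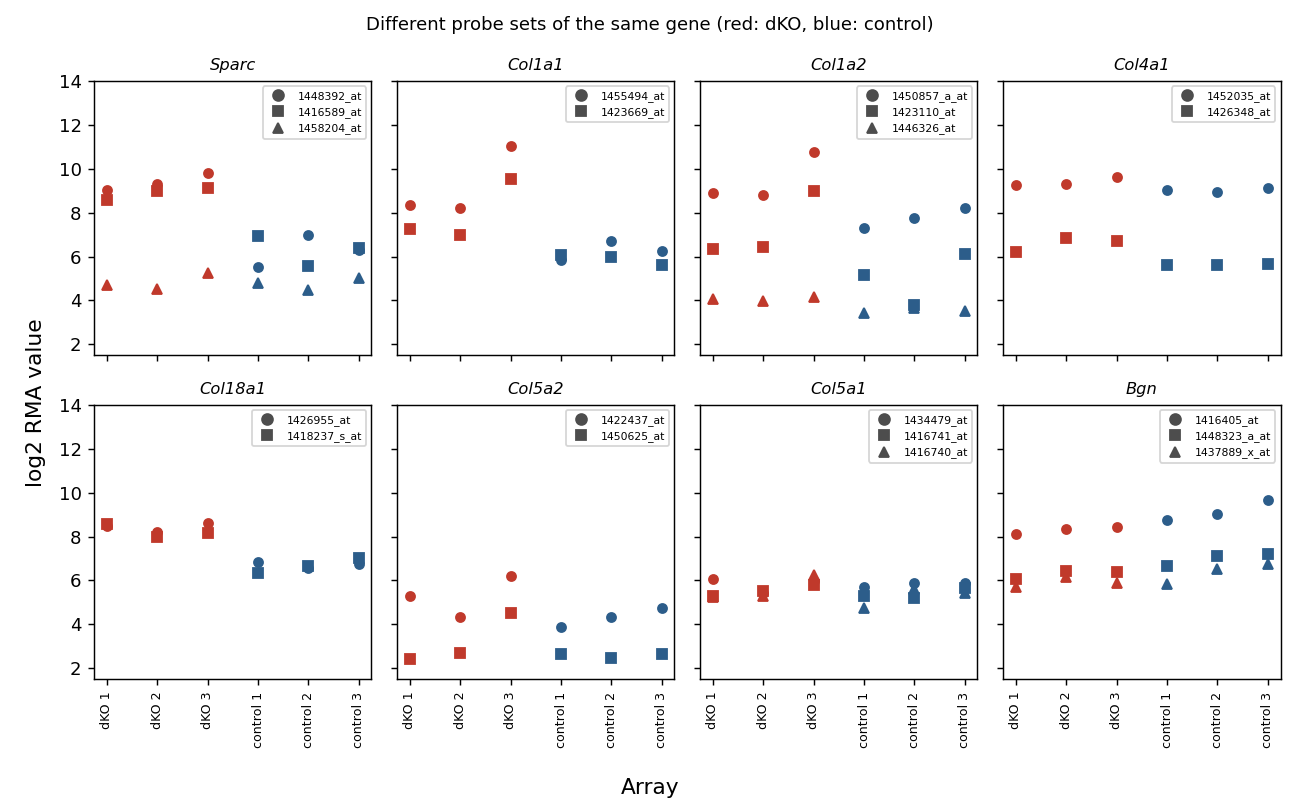
Log2 RMA values of every single-symbol probe set of 8 matrix genes, with marker shape giving the probe set, red dKO and blue control. The peak in dKO replicate 3 appears in both probe sets of Col1a1 and of Col5a2 and in 2 of 3 of Col1a2, and the third Sparc probe set, near 4.8 in both groups, lacks the difference seen by the other 2.

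A different set of genes was highest in dKO replicate 1. Col3a1, the type III collagen chain of vessels and soft tissue, had 7.18, 5.92 and 4.56 in dKO arrays and 4.61, 4.46 and 5.18 in control arrays. It was thus low in dKO replicate 3, the array with the most type I signal, and its groups overlapped (limma adjusted p = 0.337). Dcn, the small proteoglycan decorin that coats collagen fibrils, had 7.0, 4.95 and 5.75 in dKO arrays and 4.89, 4.35 and 4.92 in control arrays, with limma adjusted p = 0.212. The second probe set of Dcn, 1441506_at, had 4.31, 4.20 and 4.17 in dKO arrays and 4.0, 4.51 and 4.30 in control arrays, and that of Col3a1, 1427884_at, was at negative control level in both groups, so neither showed the peak in dKO replicate 1. Tnc, the adhesion-modulating protein tenascin C, had 7.25, 6.39 and 5.64 in dKO arrays and 5.67, 6.75 and 5.13 in control arrays, a wide and overlapping spread (limma adjusted p = 0.591). Over all members dKO replicate 1 was the highest array for 21 of 51 genes (41.2%), dKO replicate 3 for 12 (23.5%) and dKO replicate 2 for 3 (5.88%). Among all 18193 genes these shares were 18.6%, 15.5% and 16.0%. A control array was the highest for the other members: control replicate 1 for 2 genes, control replicate 2 for 5 and control replicate 3 for 8, where 17.2%, 13.3% and 19.3% of all genes had their highest value there.

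Col6a3, the largest chain of type VI collagen, followed a control pool. It had 4.54, 5.11 and 4.77 in dKO arrays and 5.24, 7.68 and 5.57 in control arrays. Control replicate 2 was 2.11 above the next array, the largest gap of the 13 genes (0.0715% of all) with a gap of at least 1 there, and the difference of -1.36 ± 0.59 did not pass (SE, limma adjusted p = 0.245). Fn1, which encodes the cell-binding protein fibronectin, also rested on that array. It had 6.91, 6.51 and 6.63 in dKO arrays and 5.39, 6.88 and 5.57 in control arrays (difference 0.74 ± 0.38 SE, limma adjusted p = 0.321). Without control replicate 2 it was higher in dKO cells by 1.20 (limma adjusted p = 0.0315), and it was called under no other alternative. Its second probe set, 1437218_at, was at negative control level in both groups (difference 0.13, limma adjusted p = 0.785). Granulocyte markers were also high in control replicate 2, and their part was not tested. Their linear values summed to 2900 there, against 988 to 1221 in the other 2 control arrays and 427 to 1410 in dKO arrays.

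Besides Col6a3, the members with every dKO array below every control array differed by less than 1 and did not pass. Bgn, the proteoglycan biglycan, had 8.13, 8.35 and 8.44 in dKO arrays and 8.74, 9.03 and 9.67 in control arrays (difference -0.84 ± 0.25 SE, limma adjusted p = 0.0977). Its second probe set, 1448323_a_at, had means of 6.30 ± 0.21 and 7.0 ± 0.29 (SD, n = 3 arrays each in dKO and control), with limma adjusted p = 0.0836. The third, 1437889_x_at, had 5.70, 6.16 and 5.90 in dKO arrays and 5.83, 6.52 and 6.75 in control arrays, which overlap (limma adjusted p = 0.386). Col17a1, a transmembrane collagen of epithelial anchoring sites, had 4.90, 4.47 and 4.77 in dKO arrays and 5.41, 5.10 and 5.66 in control arrays (limma adjusted p = 0.088). Neither Bgn nor Col17a1 was called under any alternative that tested it, and Col17a1 was not tested under the filter on a mean over 6.

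The remaining listed matrix genes were dim or even. Lum, the proteoglycan lumican, had 3.70, 3.37 and 3.57 in dKO arrays and 2.68, 3.23 and 2.93 in control arrays, all in the negative control range. Lox, the enzyme that cross-links collagen, had 5.09, 4.81 and 5.73 in dKO arrays and 4.46, 5.59 and 4.74 in control arrays, with overlapping groups (limma adjusted p = 0.718). Alpl, the alkaline phosphatase of bone-forming cells, had dKO values of 5.91, 5.39 and 5.55 and control values of 5.55, 5.64 and 5.84 (limma adjusted p = 0.9). Postn, the bone-lining protein periostin, had 4.16, 4.30 and 4.40 in dKO arrays and 4.34, 4.39 and 4.59 in control arrays (limma adjusted p = 0.614). None of these 4 genes separated above background between the groups.

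By collagen class, the fibril-associated collagens (9 genes, median difference 0.08), the short-chain network collagens (3 genes, 0.02) and the transmembrane collagens (4 genes, -0.09) had 0 called members by limma. Of the fibril-associated genes, Col16a1 had 7.64, 7.63 and 7.85 in dKO arrays against 6.91, 7.19 and 7.54 in control arrays, and was higher at an unadjusted p under 0.05 only (limma adjusted p = 0.184). None of the transmembrane genes was higher at that level and 1 was lower, Col17a1. Of the 47 members that did not pass, 34 differed by less than 0.5 in either direction.

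**Figure D4:**
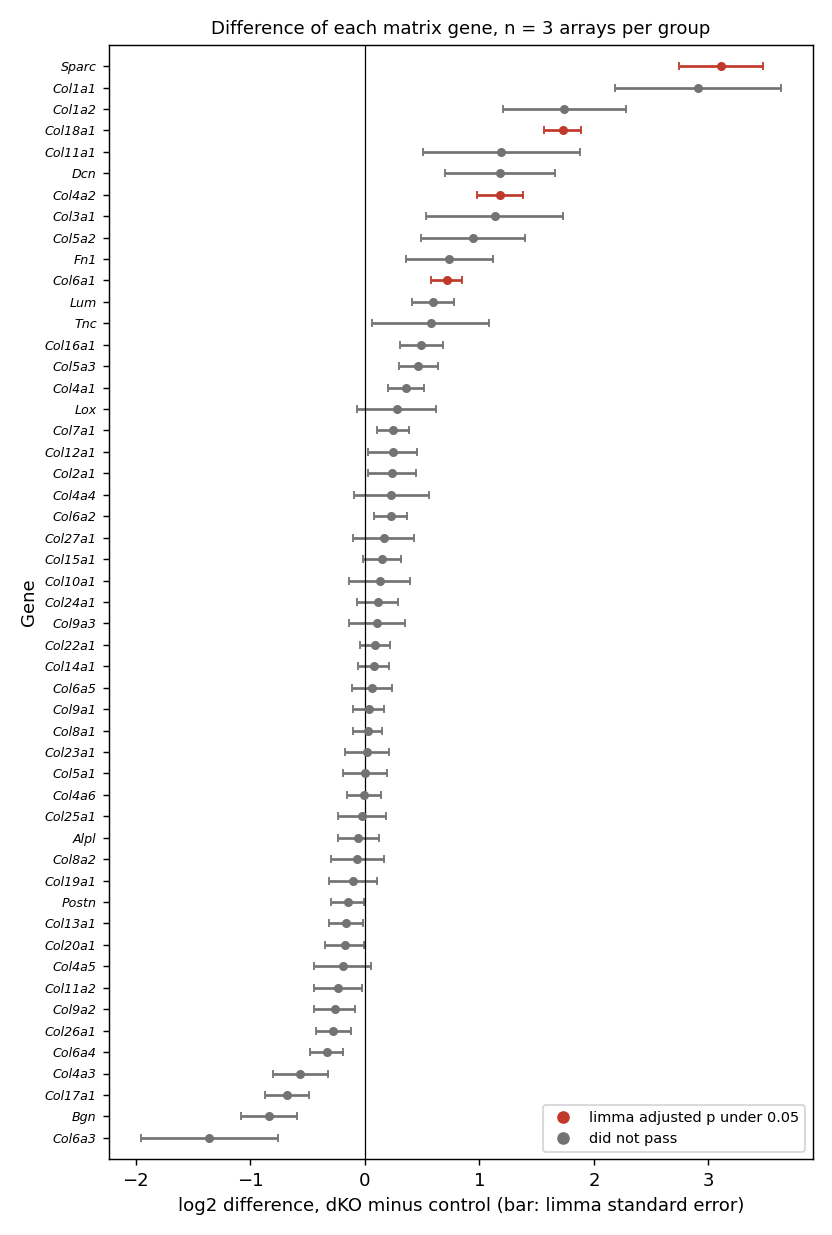
Log2 difference, dKO minus control, of each of the 51 genes with its limma standard error (n = 3 arrays per group), in red where limma's adjusted p was under 0.05. Sparc at 3.11 and Col18a1 at 1.73 have narrow bars, and Col1a1 at 2.91 has a wide one and did not pass.

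Markers of matrix-producing cells were set beside these values. For the counts below, 4.49% of all genes were called higher and 3.56% lower by limma. Of 12 stromal reticular markers, 0 passed limma's test in either direction, and 0 were called at an unadjusted p under 0.05. Their linear values summed to 519 to 808 in dKO arrays and 594 to 719 in control arrays, with the highest sum in dKO replicate 1, the array highest for Col3a1 and Dcn, and the lowest in dKO replicate 3, the array highest for Col1a1. In dKO replicate 1, 5 of the 12 had their highest value (41.7%, where 18.6% of all genes did). Control replicate 1 was the highest array for 3 of the 12 and control replicate 3 for 2. Vcam1, an adhesion molecule highest in dKO replicate 1, had 6.91, 6.02 and 5.94 in dKO arrays and 5.85, 6.0 and 6.08 in control arrays. Cxcl12, the chemokine of reticular stromal cells, had 6.88, 6.60 and 4.50 in dKO arrays and 6.59, 6.85 and 5.65 in control arrays, lowest in dKO replicate 3. Adipoq lay in the negative control range in both groups. The part of these cells in the matrix values was not tested.

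Of 9 osteoblast markers, 0 passed limma's test, with 0 higher and 1 lower at an unadjusted p under 0.05. Their sums were 263 to 337 in dKO arrays and 242 to 347 in control arrays. Sp7, the transcription factor that defines the lineage, had 3.17, 3.12 and 3.64 in dKO arrays and 3.27, 3.21 and 3.54 in control arrays, all in the negative control range, as were Phex and the group means of Mmp13. Ibsp, bone sialoprotein, had 6.53, 6.22 and 6.71 in dKO arrays against 6.24, 6.18 and 5.89 in control arrays (limma adjusted p = 0.269).

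Endothelial markers differed among themselves in dKO replicate 1, the array highest for Col3a1 and Dcn. Cdh5, the junction protein that defines endothelium, had 5.84, 4.37 and 3.87 in dKO arrays and 4.65, 4.08 and 4.33 in control arrays. Stab2, a scavenger receptor of sinus endothelium, had 6.18, 5.37 and 5.05 in dKO arrays and 5.0, 4.32 and 4.37 in control arrays. Emcn, the sialomucin endomucin, had 6.59, 6.82 and 6.78 in dKO arrays and 7.38, 7.01 and 7.0 in control arrays, lowest in dKO replicate 1, as Esam also was. Of the 12 endothelial genes, 7 had a mean above 6, and several are also known from stem cells. In dKO replicate 1, 5 of the 12 were highest (41.7%, where 18.6% of all genes were). Control replicate 1 was highest for 2, control replicate 2 for 1 and control replicate 3 for 2. The sums over the 12 were 1350 to 1520 in dKO arrays and 1350 to 1646 in control arrays, highest in control replicate 1. By limma 1 of the 12 rose (Pecam1) and 2 fell (Esam and Robo4), and their part in the Col3a1 and Dcn values was not tested.

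Of 12 macrophage genes, 3 rose (C1qb, Mrc1 and Fcgr1), 0 fell and 9 did not pass by limma, with a list median of 0.14. That is 25% higher, where 4.49% of all genes were, and 1 gene had every dKO array below every control array. The linear values of the macrophage genes summed to 598 to 642 in dKO arrays and 446 to 496 in control arrays. Their part in the matrix values was not tested. The stem cell list had 4 of 10 measured genes lower (Tek, Kit, Hlf and Hoxb5) and 0 higher. Of 12 granulocyte genes 0 passed limma's test, with 0 higher and 2 lower at an unadjusted p under 0.05, and of 8 measured erythroid genes 0 rose and 1 fell (Klf1).

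**Figure D5:**
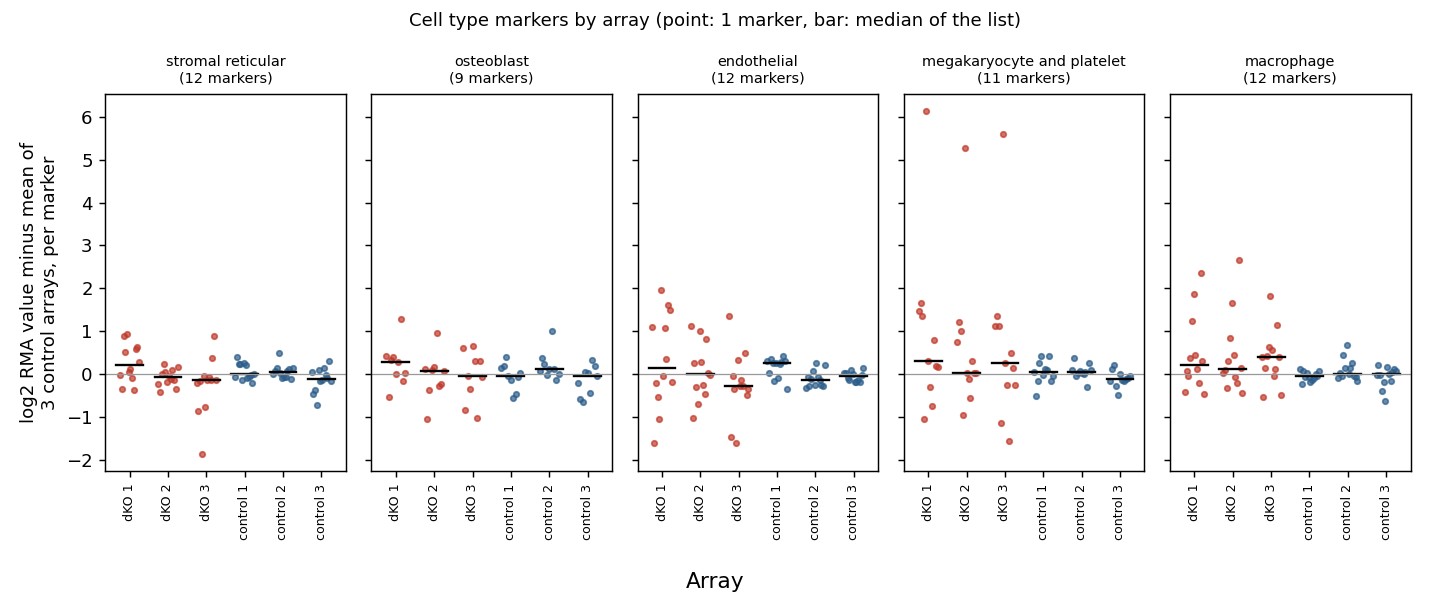
Each point is 1 marker gene in 1 array, as log2 RMA value minus its mean over the 3 control arrays, with a bar at the median of the list. The medians of the stromal reticular and osteoblast lists lie within 0.5 of 0 in all 6 arrays, and 1 megakaryocyte marker, Ppbp, stands more than 5 above control in each dKO array.

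Genes that make, bind or cut the matrix were read from lists drawn up by name. The counts in these lists stand beside 4.49% of all 18193 genes called higher and 3.56% called lower by limma. In collagen synthesis and crosslinking, 3 of 25 measured genes rose and 1 fell (median difference 0.19). P4hb, the beta subunit of collagen prolyl hydroxylase, rose by 0.96 ± 0.18 (SE), and the prolyl hydroxylase relative P3h3 had a difference of -1.75 ± 0.32. Loxl3, a collagen cross-linking oxidase, rose by 1.03 ± 0.21, and the lysyl hydroxylase Plod2 rose by 0.81 ± 0.17. Their limma adjusted p values were 0.0247, 0.0222, 0.031 and 0.0326. Plod2 kept values of 7.50, 7.53 and 7.45 in dKO arrays, against 6.66, 6.96 and 6.42 in control arrays, with no peak in any single pool. Loxl3 needed all 6 arrays for its call, P4hb lost its call when any array but control replicate 1 was removed, and P3h3 lost its call when any of the dKO arrays was removed.

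Elastic fibre, basement membrane and proteoglycan genes held a few calls. Emilin2, an elastic fibre glycoprotein, had 10.32, 10.42 and 10.38 in dKO arrays and 7.89, 7.95 and 8.05 in control arrays, a difference of 2.41 ± 0.13 (SE, limma adjusted p = 5.11e-04). Ltbp1, which holds latent TGF-beta in the matrix, had 8.41, 7.51 and 7.71 in dKO arrays and 4.68, 5.51 and 5.20 in control arrays. Its difference was 2.75 (limma adjusted p = 0.00469) by this probe set. With the mean over its probe sets the difference was smaller, 0.94 (limma adjusted p = 0.0106). Emilin2 and Ltbp1 were the 2 called genes of 15 in the elastic fibre list, whose median was -0.04. In the laminin and basement membrane list 1 of 20 rose (5%, near the 4.49% of all genes) and 0 fell. The 1 was Nid2 (0.87 ± 0.20 SE), which needed all 6 arrays for its call. Of 17 proteoglycan genes 2 rose, Ogn (0.98 ± 0.13) and the granule proteoglycan Srgn (0.57 ± 0.13, which also needed all 6), and 0 fell.

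Among 21 matricellular genes, secreted modulators of cell and matrix contact, 4 rose and 0 fell, with a list median of 0.14. Ecm1 had 8.89, 8.81 and 8.84 in dKO arrays and 6.89, 7.12 and 6.47 in control arrays (difference 2.01 ± 0.19 SE, limma adjusted p = 0.00287). Tgfbi, a TGF-beta-induced adhesion protein, rose by 1.68 ± 0.23, and Ccn3 by 1.77 ± 0.24. The fourth, thrombospondin 1 (Thbs1, also a platelet granule protein), had 8.73, 7.87 and 8.16 in dKO arrays and 5.0, 5.73 and 6.36 in control arrays.

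Of 22 proteases and inhibitors, 3 rose and 1 fell. Timp3, a matrix-bound inhibitor of metalloproteinases, had 11.36, 10.77 and 10.68 in dKO arrays and 8.02, 8.30 and 8.94 in control arrays (difference 2.51 ± 0.28 SE, limma adjusted p = 0.00535). Its relative Timp2 went the other way (-1.01 ± 0.17, limma adjusted p = 0.0178). The protease Adamts1 rose by 1.44 ± 0.31 and the plasminogen activator Plau by 1.74 ± 0.40. The Adamts1 call was lost without dKO replicate 1, 2 or 3 or control replicate 3, and the Timp2 call without dKO replicate 1 or 3 or control replicate 1 or 3.

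Of 24 matrix receptors, 2 rose (8.33%, where 4.49% of all genes did) and 1 fell (3.56% of all genes did). The laminin-binding integrin chain Itga6 rose by 0.90 ± 0.14 (SE) and the hyaluronan receptor Cd44 by 0.64 ± 0.14, while Itga4, a fibronectin and Vcam1 receptor chain, had a difference of -0.84 ± 0.18. Of 17 TGF-beta ligands, receptors and signalling genes, Tgfb1, whose product induces collagen genes in fibroblasts, rose by 1.15 ± 0.15, its receptor chain Tgfbr2 by 1.06 ± 0.22, and the signal carrier Smad4 had a difference of -0.62 ± 0.14. Cd44 and Smad4 lost their calls with any 1 array left out, Itga4 with any but dKO replicate 2, Tgfbr2 with any but dKO replicate 3, and Itga6 without dKO replicate 1.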

How the data were processed

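RNA of sorted LT-HSC pools was amplified in 2 rounds (NuGEN WT-Ovation Pico) and hybridised to Affymetrix arrays, 3 per group. The authors deposited log2 values for 45101 probe sets, made with RMA per the submitters' processing notes. For its version and settings and for the genome build, nothing is given in the sources used here. RMA corrects background, aligns the arrays' distributions and summarises probes, so a difference shared by all probes is removed and low values are compressed. Probe sets were named by the platform annotation, which can be old. A gene took its probe set with the highest mean, and genes with only probe sets of several symbols were left out.

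The 64 array controls were left out. limma 3.58.1 (R 4.3.3) was fitted to the deposited log2 values of the other 45037 probe sets, without the replicate number as a block, and p-values were adjusted by Benjamini-Hochberg over all of them. Fold changes are dKO over control. Standard errors are limma's moderated ones. Nothing says that pools were processed on separate days, so p-values measure the spread between these pools. On simulated data with 200 changed probe sets, the test found 27% of changes of 1 and 80% of changes of 2 (log2), with 4 false calls. The simulation drew normal noise and shuffled the spreads over probe sets. It also changed far fewer probe sets than the 3146 called here, so these shares may not hold for the real arrays. The rule for named genes took Sparc and Col1a1, members past the threshold, members with 1 array at least 1 above the next, the listed matrix genes, the 5 members with the highest mean, Myc and Mycn, and of each pathway list up to 3 called genes with the smallest p. Other members, Plod2, Plau, Thbs1 and the marker genes were named after their values were seen. The members and lists were chosen with earlier results of these data known. Same-numbered arrays did not deviate together, so the numbers were not taken to pair them. The alternatives were median centring, quantile normalization, a mean over 6, a trended robust prior, array weights, the mean over probe sets, the replicate block and leaving out each array.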

Additional observations from a re-analysis of the deposited data

How the results depend on the processing

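With all arrays 3146 probe sets were called, and with the replicate number as a block (replicate block) 1530. Leaving out 1 array gave 1338 to 1674 probe sets and 2 to 4 members called higher, against 4 with all arrays. No member was called lower by limma under any alternative. Sparc and Col18a1 were called under every alternative run. The block left 3 members, since Col6a1 did not pass (adjusted p = 0.0676). Col1a1 was added by a trended robust prior, by the filter on a mean over 6 and by the mean over probe sets, which also added Col4a1 (0.66, adjusted p = 0.0262). The members with 1 array standing high numbered 6 at a gap of 1, 3 at a gap of 2 and 2 among members with a mean over 6. The Alpl difference, not called, changed sign to 0.0052 with each array centred on its median, and leaving out 1 array gave -0.20 to 0.056, above 0 without dKO replicate 2 or control replicate 3 (0.028). Median centring moved all differences by 0.061. Of the results on single genes, 85 values under alternatives lost the call, 6 gained it and 414 kept direction and side of the threshold. In lists outside the members, Ogn, Tgfb1, Tgfbr2, Timp2, Cd44 and Smad4 were not called by the mean over probe sets. With the replicate block, Nid2, Srgn, Timp2, Adamts1, Itga6, Itga4, Cd44 and Smad4 were not called. Itga4 and Smad4 also lost their calls with median centring, and Cd44 with quantile normalization. The cause of these changes was not tested. Signal over background limits Col6a1, Col11a1, Col4a3 and the 6 members at negative control level in both groups.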

Other observations

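Outside the matrix genes, and chosen after their values were seen, other genes shared the arrays that stood out. They are a few of many: a gap of at least 1 was shown by 56 genes in dKO replicate 1, 42 in dKO replicate 3 and 13 in control replicate 2. Others with such a gap were Egr2, Mfsd3 and Cxcl3 in dKO replicate 1, and Ugt2b1, Otc and Ifna11 in dKO replicate 3. A shared source of these genes was not tested. Apod, a lipid carrier known from perivascular and stromal cells, had 9.35, 6.95 and 5.25 in dKO arrays and 5.63, 6.70 and 5.91 in control arrays, highest in dKO replicate 1 by 2.40. Abcc9, a potassium channel subunit known from pericytes, was also highest in dKO replicate 1. It had 6.20, 4.0 and 4.42 in dKO arrays and 3.61, 3.45 and 3.44 in control arrays. Other genes stood out in control arrays instead. Myh11, a smooth muscle myosin chain, was highest in control replicate 1. It had 6.0, 5.94 and 4.94 in dKO arrays and 8.41, 5.79 and 6.90 in control arrays. The matrix genes Spon1 and Adamtsl4, not among the members, were highest in control replicate 3, by 1.98 and 2.06. Krt6b, an epithelial keratin, reached 5.75 in dKO replicate 3 and was not above the negative control range in the other arrays. F13a1, a clotting factor chain found in monocytes and platelets, had 5.42, 5.96 and 5.10 in dKO arrays and 6.01, 7.75 and 6.11 in control arrays, highest in control replicate 2 as Col6a3 was. Mpo, the myeloperoxidase of granulocyte precursors, had 5.74, 9.04 and 5.56 in dKO arrays and 8.23, 10.58 and 8.58 in control arrays, again highest in control replicate 2.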
